A study of Arabidopsis thaliana with 12 samples.

Results

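The plastid ribosome of Arabidopsis is assembled from RNAs and proteins of 2 genomes, and the 39 nuclear genes described here encode its proteins. They were taken as the entries of 3 deposited tables that carry 1 of 39 listed gene codes, out of 38093 genes in each table. The list held 9 proteins of the small subunit, 24 of the large subunit and 6 proteins called plastid-specific because they were first described as having no counterpart in bacterial ribosomes. Every code was found in every table, and 38 of the 39 genes were tested in each comparison.

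RNA was sequenced from seedlings of the mutants gun1-1, gun4-1 and gun5-1 and of the wild type Col-0, with 3 biological replicates of each genotype and 12 libraries in all. All 4 genotypes were in the Col-0 ecotype, and all, controls included, germinated and grew for 5 days on 5 µM norflurazon in continuous light of 100 µE. Norflurazon blocks carotenoid synthesis, and plastids without carotenoids are bleached and damaged by light. The labels name whole seedlings as the source whereas the design text speaks of leaves. Genes chosen for leaf and root did not settle whether roots were included. In Col-0, RBCS1A, a small subunit of Rubisco, was at 6226 FPKM and the root phosphate transporter PHT1;1 at 15.6 FPKM. The root nitrate transporter NRT2.1 was near 0 at 0.103 FPKM. The nature of each lesion is not stated in the sources used here, so the levels of the mutated genes were no test of the labels. GUN1, a pentatricopeptide repeat protein of the plastid, was at 137 FPKM in gun1-1 and 149 FPKM in Col-0, GUN4, a regulator of magnesium chelatase, at 3.67 FPKM in gun4-1 and 2.21 FPKM in Col-0, and GUN5, the H subunit of that enzyme, at 683 FPKM in gun5-1 and 189 FPKM in Col-0. Of these 3 only GUN5 passed the test in its own mutant, where it was higher. CAB2 (AT1G29920), a light-harvesting gene of the kind by which gun mutants are recognised, was at 2075 FPKM in gun1-1 and 33.5 FPKM in Col-0, at 321 FPKM in gun4-1 and 36.0 FPKM in Col-0, and at 1673 FPKM in gun5-1 and 32.9 FPKM in Col-0.

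The plastid ribosome descends from that of a cyanobacterium and makes the subunits of the photosystems, Rubisco and the plastid RNA polymerase that the plastid genome still encodes. Most of its proteins are made in the cytosol from nuclear genes and imported, and the rest are made on plastid ribosomes themselves. In wild-type seedlings whose plastids are damaged by norflurazon, many nuclear genes for plastid proteins are held at low levels, and gun mutants are those in which this repression is relieved in part.

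The values are FPKM, fragments scaled by transcript length and by the mapped fragments of a library, and each is the authors' group value over 3 libraries. The tables hold no value for a single library, so no spread between replicates could be given, the depth is unknown, and the error of a fold change is a standard error (SE) derived from the deposited test statistic. Calls of higher or lower rest on a q-value under 0.05 in the authors' deposited tables. The same Col-0 libraries stand in all 3 tables, scaled by a different constant in each, so the 3 comparisons are not independent of each other. Levels given for 4 genotypes side by side were put on the scale of the gun1-1 table. RNA came from bulk tissue, in which fewer cells of a type and less RNA per cell cannot be told apart.

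Nuclear genes of the plastid ribosome were higher in all 3 mutants than in Col-0, by the most in gun5-1 and by the least in gun4-1. In gun5-1, 38 of 38 tested genes were called higher, with a median log2 fold change of 1.10 (2.14-fold) and a range of 0.81 to 1.68. In gun1-1, 37 of 38 were higher, with a median of 0.66 (1.58-fold) and a range of 0.21 to 1.69 over all 38. In gun4-1, 34 of 38 were higher, with a median of 0.44 (1.35-fold) and a range of 0.20 to 0.88. None was called lower, and no tested member had a log2 fold change below 0 in any mutant. Of all tested genes with a finite log2 fold change, 49.0% lay above 0 in gun5-1, 48.7% in gun1-1 and 50.1% in gun4-1.

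The background against which these counts stand differed between mutants. Of all tested genes, 16.4% were called higher and 13.1% lower in gun5-1, 18.8% higher and 14.9% lower in gun1-1, and 8.21% higher and 5.88% lower in gun4-1. Among tested genes at 100 FPKM or more in Col-0, where the members lie, 32.6% were higher in gun5-1, 32.3% in gun1-1 and 19.1% in gun4-1. The median log2 fold change of all tested genes was -0.01 in gun5-1, -0.02 in gun1-1 and 0.0005 in gun4-1. In each comparison the share of members called higher was above both.

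The changes were moderate in size. At least a doubling was seen in 32 of 38 genes in gun5-1, in 6 of 38 in gun1-1 and in 0 of 38 in gun4-1. The share of all genes with such a change was not computed. The SD of the log2 fold change between members was 0.187 in gun5-1, 0.298 in gun1-1 and 0.154 in gun4-1, beside a median SE of a single gene of 0.170 in gun5-1, 0.166 in gun1-1 and 0.173 in gun4-1. Measured against this SE, the members differed from one another by about as much as the error of 1 gene in gun5-1 and gun4-1, and by more in gun1-1. The deposited p-values can correspond to a smaller SE than the statistic does. In gun4-1, PRPL13 had a log2 fold change of 0.30 (SE 0.174) with a Cuffdiff p of 0.00185, which corresponds to a smaller SE. The comparison of SD and SE therefore depends on the SE chosen. The members together held 2.68% of the FPKM of all nuclear genes in gun5-1, 2.09% in gun1-1, 1.95% in gun4-1 and 1.56% in Col-0.

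**Figure D1:**
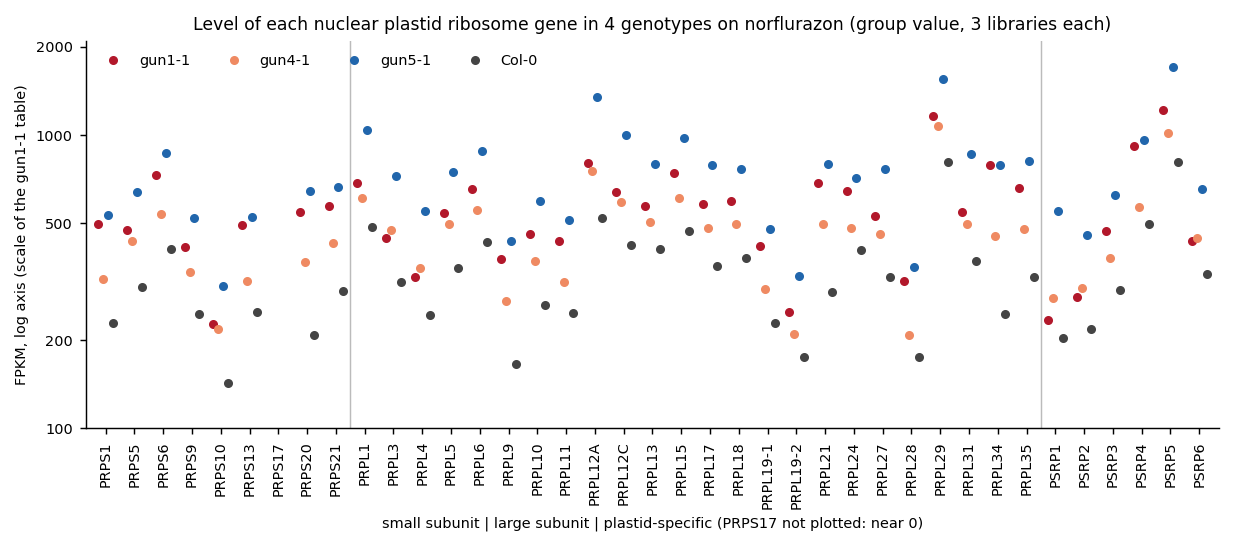
FPKM of each nuclear plastid ribosome gene on a log axis, in gun1-1, gun4-1, gun5-1 and Col-0 on the scale of the gun1-1 table; each point is a group value over 3 libraries, and grey lines part the small subunit, large subunit and plastid-specific proteins. Col-0 was the lowest of the 4 genotypes for each of the 38 genes plotted, and gun5-1 was the highest for all but PRPL34.

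Even in bleached Col-0 seedlings these were abundant transcripts. They ranged between 143 FPKM (PRPS10) and 813 FPKM (PRPL29) with a median of 309.6 FPKM, while the median of all tested genes was 11.4 FPKM. Each lay between the 95.0 and 99.6 percentile of tested genes. The 3 highest were PRPL29, PSRP5 and PRPL12A at 813, 809.8 and 523 FPKM, and the 3 lowest were PRPS10, PRPL9 and PRPL19-2 at 143, 166 and 175 FPKM. PRPL28 at 175 FPKM could not be set apart from PRPL19-2. FPKM is a level per length of transcript, so these orders are orders of level.

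Among the proteins of the small subunit, which reads the messenger RNA, all 8 tested genes were higher in every mutant. Their median log2 fold change was 0.90 in gun1-1, 0.51 in gun4-1 and 1.10 in gun5-1. PRPS1 (AT5G30510), whose counterpart in Escherichia coli brings messenger RNA to the small subunit, was at 497 FPKM in gun1-1, 322 FPKM in gun4-1, 535 FPKM in gun5-1 and 229 FPKM in Col-0. Its log2 fold change was 1.12 (SE 0.165) in gun1-1, 0.50 (SE 0.171) in gun4-1 and 1.23 (SE 0.168) in gun5-1. PRPS1 thus stood at a similar level in gun1-1 and gun5-1, and in gun4-1 it lay nearer to Col-0.

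PRPS20 (AT3G15190), whose bacterial counterpart binds the small ribosomal RNA early in assembly, had the second highest fold change of all members in each comparison. It was at 547 FPKM in gun1-1, 369.9 FPKM in gun4-1, 645 FPKM in gun5-1 and 208 FPKM in Col-0. The log2 fold change was 1.39 (SE 0.180) in gun1-1, 0.83 (SE 0.189) in gun4-1 and 1.63 (SE 0.183) in gun5-1. PRPS10 (AT3G13120), the least abundant of the tested members in Col-0, was at 226 FPKM in gun1-1, 218 FPKM in gun4-1, 307 FPKM in gun5-1 and 143 FPKM in Col-0. Its gun1-1 and gun4-1 levels were alike, with log2 fold changes of 0.67 (SE 0.191) and 0.61 (SE 0.199), and gun5-1 was at 1.11 (SE 0.191). The remaining tested genes of this subunit, PRPS5 (AT2G33800), PRPS6 (AT1G64510), PRPS9 (AT1G74970), PRPS13 (AT5G14320) and PRPS21 (AT3G27160), had log2 fold changes between 0.64 and 0.99 in gun1-1, between 0.35 and 0.55 in gun4-1 and between 1.07 and 1.17 in gun5-1.

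The ninth gene of the small subunit, PRPS17 (AT1G79850), was the one member without a test. It was listed at 0.341 FPKM in gun1-1, 0 in gun4-1, 0.249 FPKM in gun5-1 and 0 in Col-0. The gene lies at chr1:30041243-30041952 on the minus strand (TAIR10.1), and the annotation places a long noncoding RNA gene, AT1G09927, on the opposite strand at chr1:30041286-30041963, so that 667 bases are shared. AT1G09927 was listed at 1065 FPKM in gun1-1, 1031 FPKM in gun4-1, 1637 FPKM in gun5-1 and 773 FPKM in Col-0 and was called higher in all 3 mutants, with log2 fold changes of 0.46, 0.42 and 1.08. These values lie within the range of the other members in the same mutants. The labels describe random-hexamer priming and name no step that keeps strand, so that reads of the 2 genes cannot be told apart in these tables.

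**Figure D2:**
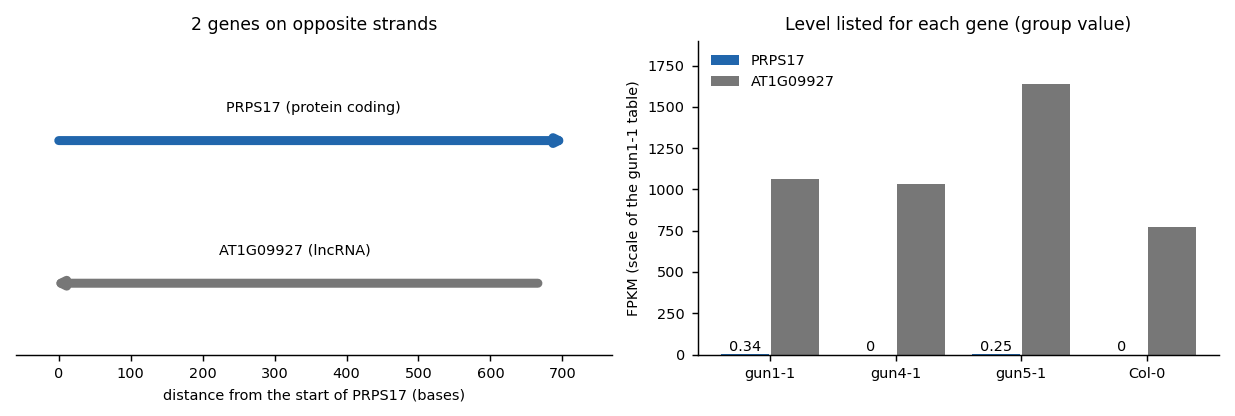
Left: extents and directions of PRPS17 and AT1G09927, in bases from the start of PRPS17. Right: bars of the FPKM listed for each gene in gun1-1, gun4-1, gun5-1 and Col-0 (group values over 3 libraries); AT1G09927 reaches 1637 FPKM in gun5-1, against 773 FPKM in Col-0, while PRPS17 stays at 0.341 FPKM or below.

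In the large subunit, which forms the peptide bond, 24 of 24 genes were higher in gun1-1 and in gun5-1 and 21 of 24 in gun4-1. The median log2 fold change was 0.65 in gun1-1, 0.42 in gun4-1 and 1.12 in gun5-1. PRPL34 (AT1G29070), a small protein of the large subunit, had the highest fold change of all members in each comparison. It was at 794 FPKM in gun1-1, 453 FPKM in gun4-1, 789 FPKM in gun5-1 and 246 FPKM in Col-0. The log2 fold change was 1.69 (SE 0.168) in gun1-1, 0.88 (SE 0.173) in gun4-1 and 1.68 (SE 0.170) in gun5-1, so that gun1-1 and gun5-1 were level for this gene. PRPL21 (AT1G35680), which binds the large ribosomal RNA, came next after PRPL34 and PRPS20 in each comparison, at 685 FPKM in gun1-1, 497 FPKM in gun4-1, 797 FPKM in gun5-1 and 291 FPKM in Col-0. Its log2 fold changes were 1.23 (SE 0.165), 0.77 (SE 0.170) and 1.45 (SE 0.167) in gun1-1, gun4-1 and gun5-1. That PRPL34, PRPS20 and PRPL21 led in each mutant is not 3 separate observations, since their Col-0 level enters every comparison.

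PRPL29 (AT5G65220), whose bacterial counterpart sits at the exit of the peptide tunnel, was the most abundant member in Col-0, at 1162 FPKM in gun1-1, 1071 FPKM in gun4-1, 1559.7 FPKM in gun5-1 and 813 FPKM in Col-0. Its log2 fold change of 0.94 (SE 0.178) was among the 3 lowest in gun5-1, and in gun1-1 and gun4-1 it was 0.52 (SE 0.174) and 0.40 (SE 0.184). PRPL9 (AT3G44890), among the least abundant members in Col-0, was at 377 FPKM in gun1-1, 272 FPKM in gun4-1, 435 FPKM in gun5-1 and 166 FPKM in Col-0. The corresponding log2 fold changes were 1.19 (SE 0.166), 0.72 (SE 0.170) and 1.39 (SE 0.168), above the median member in each mutant.

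In the large subunit, PRPL19-2 (AT4G17560), PRPL24 and PRPL28 were not called in gun4-1 and were called higher in gun1-1 and gun5-1. PRPL24 (AT5G54600), whose counterpart in Escherichia coli starts assembly of the large subunit, was at 645 FPKM in gun1-1, 484 FPKM in gun4-1, 712 FPKM in gun5-1 and 405 FPKM in Col-0. In gun4-1 its log2 fold change was 0.26 (SE 0.172) with q = 0.0722 in the authors' deposited table, and its 0.81 (SE 0.169) was the lowest of all members in gun5-1. PRPL28 (AT2G33450) was at 318 FPKM in gun1-1, 208 FPKM in gun4-1, 356 FPKM in gun5-1 and 175 FPKM in Col-0. Its log2 fold change was 0.25 (SE 0.233) in gun4-1 with q = 0.293 in the authors' deposited table, 0.86 (SE 0.231) in gun1-1 and 1.02 (SE 0.240) in gun5-1. PRPL28 shares 513 bases with AT2G33460 on the opposite strand. AT2G33460 was at 120.1 FPKM in gun1-1 and 64.7 FPKM in Col-0 and at 128 FPKM in gun5-1 and 63.6 FPKM in Col-0, both called higher. In gun4-1 it was at 81.7 FPKM and 69.4 FPKM in Col-0 and, like PRPL28, was not called. As for PRPS17, reads of the 2 genes cannot be told apart where they overlap.

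PRPL19 is encoded by a pair of genes on different chromosomes whose coding sequences are 79.8% identical. PRPL19-1 (AT5G47190) was at 418 FPKM in gun1-1, 299.8 FPKM in gun4-1, 478 FPKM in gun5-1 and 229 FPKM in Col-0. PRPL19-2 was at 249 FPKM in gun1-1, 210.4 FPKM in gun4-1, 332 FPKM in gun5-1 and 175 FPKM in Col-0, so it was the less abundant of the pair in all 4 genotypes. The log2 fold change of PRPL19-1 was 0.87 (SE 0.165) in gun1-1, 0.39 (SE 0.169) in gun4-1 and 1.06 (SE 0.167) in gun5-1. That of PRPL19-2 was smaller each time, at 0.51 (SE 0.165), 0.27 (SE 0.170) and 0.92 (SE 0.167), and in gun4-1 its q was 0.0527 in the authors' deposited table. The gap between the paralogs within a mutant was not tested.

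PRPL12 forms the flexible stalk that recruits the translation factors. PRPL12A (AT3G27830) was at 802 FPKM in gun1-1, 756 FPKM in gun4-1, 1353 FPKM in gun5-1 and 523 FPKM in Col-0. PRPL12C (AT3G27850) was at 639.5 FPKM in gun1-1, 594 FPKM in gun4-1, 1004 FPKM in gun5-1 and 421 FPKM in Col-0. The log2 fold changes of PRPL12A were 0.62 (SE 0.165), 0.53 (SE 0.173) and 1.37 (SE 0.170) in gun1-1, gun4-1 and gun5-1, and those of PRPL12C were 0.60 (SE 0.164), 0.50 (SE 0.171) and 1.26 (SE 0.168). Both stalk genes had their highest level in gun5-1. Their coding sequences are 91.7% identical, so reads may have been split between them by the counting, and each value is uncertain to that extent. The third copy, PRPL12B, is 77.0% identical to PRPL12A and was at 0.137 FPKM in gun1-1 and at 0 in gun4-1, gun5-1 and Col-0.

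PRPL31 (AT1G75350) was at 547 FPKM in gun1-1, 498 FPKM in gun4-1, 866 FPKM in gun5-1 and 373 FPKM in Col-0, with log2 fold changes of 0.55 (SE 0.170), 0.42 (SE 0.177) and 1.21 (SE 0.173). PRPL35 (AT2G24090) was at 663 FPKM in gun1-1, 479 FPKM in gun4-1, 817 FPKM in gun5-1 and 329 FPKM in Col-0, with log2 fold changes of 1.01 (SE 0.165), 0.54 (SE 0.169) and 1.31 (SE 0.167). Both are small proteins with bacterial counterparts, and gun5-1 was the highest genotype for each. The remaining 12 genes of this subunit were called higher in every mutant. They include PRPL10 (AT5G13510) and PRPL11 (AT1G32990), which in bacteria form the base of the stalk, PRPL1 (AT3G63490), which forms a mobile arm at the opposite side, and PRPL3 (AT2G43030), PRPL4 and PRPL27 (AT5G40950), which lie near the peptidyl transferase centre or line the tunnel. The others are PRPL5 (AT4G01310), PRPL6 (AT1G05190), PRPL13 (AT1G78630), PRPL15 (AT3G25920), PRPL17 (AT3G54210) and PRPL18. PRPL4 (AT1G07320) had the smallest change of the large subunit in gun1-1, at 0.43 (SE 0.177), and was at 0.53 (SE 0.185) in gun4-1 and 1.17 (SE 0.183) in gun5-1.

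**Figure D3:**
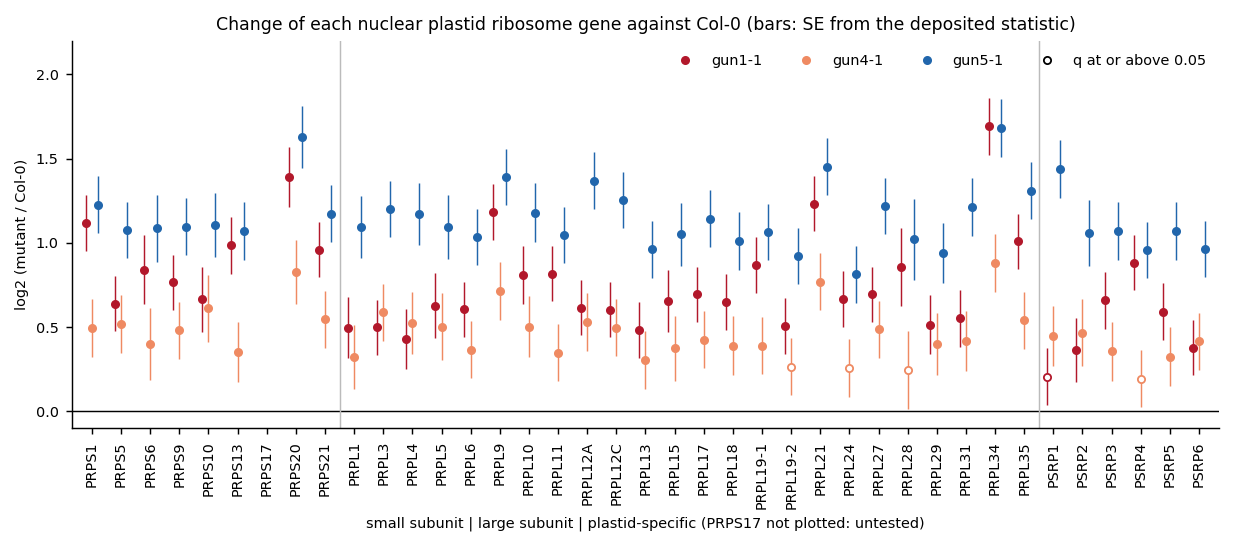
Log2 ratio of each mutant to Col-0 for the 38 tested genes, with the SE derived from the deposited statistic; filled points had q under 0.05 and open points did not. The gun5-1 points lie between 0.81 and 1.68 and the gun4-1 points between 0.20 and 0.88, and the gun1-1 points run between 0.21 (PSRP1) and 1.69 (PRPL34).

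The 6 plastid-specific proteins had the lowest median of the 3 classes in all 3 mutants, with log2 fold changes of 0.49 in gun1-1, 0.39 in gun4-1 and 1.07 in gun5-1. The next lowest class was at 0.65 in gun1-1, 0.42 in gun4-1 and 1.10 in gun5-1. In gun4-1 and gun5-1 the gap was well below the median SE of a single gene, 0.173 and 0.170. A difference between the classes was not tested. In gun1-1, 5 of 6 were called higher, in gun4-1 5 of 6, and in gun5-1 6 of 6. The 3 lowest fold changes of all members in gun1-1 were those of PSRP1 (AT5G24490), PSRP2 and PSRP6.

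PSRP1 belongs to the family of bacterial factors that silence idle ribosomes and, in spite of its name, is not regarded as a structural part of the ribosome. It was at 235 FPKM in gun1-1, 278 FPKM in gun4-1, 552 FPKM in gun5-1 and 204 FPKM in Col-0. Thus gun1-1 lay close to Col-0 and gun5-1 far above the other genotypes. The log2 fold change was 0.21 (SE 0.172) in gun1-1, with q = 0.108 in the authors' deposited table, and was the only one not called there. It was 0.45 (SE 0.176) in gun4-1 and 1.44 (SE 0.172) in gun5-1, where PSRP1 ranked 4 among 38.

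PSRP2 (AT3G52150), an RNA-binding protein with RNA recognition motifs, was at 281 FPKM in gun1-1, 302 FPKM in gun4-1, 455 FPKM in gun5-1 and 218 FPKM in Col-0. PSRP6 (AT5G17870), a protein of the large subunit, was at 436 FPKM in gun1-1, 447 FPKM in gun4-1, 654 FPKM in gun5-1 and 335 FPKM in Col-0. For both genes gun1-1 and gun4-1 were close together, with log2 fold changes of 0.36 (SE 0.192) and 0.47 (SE 0.200) for PSRP2 and of 0.38 (SE 0.164) and 0.42 (SE 0.169) for PSRP6. In gun5-1 the values were 1.06 (SE 0.194) for PSRP2 and 0.96 (SE 0.167) for PSRP6.

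PSRP4 (AT2G38140), a small protein of the small subunit, had the lowest fold change of all members in gun4-1. It was at 916 FPKM in gun1-1, 569 FPKM in gun4-1, 965 FPKM in gun5-1 and 497 FPKM in Col-0. The log2 fold change was 0.88 (SE 0.165) in gun1-1, 0.20 (SE 0.170) in gun4-1, with q = 0.222 in the authors' deposited table, and 0.96 (SE 0.167) in gun5-1. For PSRP4, gun1-1 thus lay close to gun5-1 and gun4-1 close to Col-0.

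PSRP3 (AT1G68590), a protein of the small subunit, was at 469 FPKM in gun1-1, 381 FPKM in gun4-1, 625 FPKM in gun5-1 and 297 FPKM in Col-0. Its log2 fold changes were 0.66 (SE 0.169), 0.36 (SE 0.174) and 1.07 (SE 0.173). A second gene for it, PSRP3-2, with 61.2% identity in the coding sequence, was at 6.62 FPKM in gun1-1 and 5.73 FPKM in Col-0 and was not called in any mutant. PSRP5 (AT3G56910), of the large subunit, was at 1221 FPKM in gun1-1, 1015 FPKM in gun4-1, 1704 FPKM in gun5-1 and 809.8 FPKM in Col-0, with log2 fold changes of 0.59 (SE 0.169), 0.33 (SE 0.176) and 1.07 (SE 0.172). An annotated antisense RNA of 179 bases, AT3G08785, lies opposite PSRP5 and was listed at 14272 FPKM in gun5-1 and 6366 FPKM in Col-0, without a call. Reads of this pair cannot be told apart either.

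Such overlaps concern 16 of the 39 genes, 15 of them with a gene on the opposite strand, and for 7 genes the partner's Col-0 level was above 10% of the member's, or the member was at 0. PRPL18 (AT1G48350) had the closest partner in level, AT1G48355, at 836 FPKM in gun1-1 and 365 FPKM in Col-0, not called in any mutant. Among the 23 members with no overlapping gene, 23 were called higher in gun1-1, 21 in gun4-1 and 23 in gun5-1, with median log2 fold changes of 0.69, 0.49 and 1.11. The members thus stood higher also where no annotated gene overlaps them.

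Alternative transcripts changed little of this. For 28 members the tables hold 1 transcript, and for the other 11 the main transcript carried at least 75.6% of the gene's FPKM in Col-0. Of 14 minor transcripts, of which 10 were tested in gun1-1 and gun4-1 and 11 in gun5-1, 1 was called higher in gun1-1, 0 in gun4-1 and 3 in gun5-1, and 0 were called lower. Of all tested genes, each by its most abundant transcript, 18.8% were called higher in gun1-1, 8.21% in gun4-1 and 16.4% in gun5-1. Counts this small do not set the minor transcripts apart from those shares. The second transcript of PRPS10 was at 79.2 FPKM in gun5-1 and 26.2 FPKM in Col-0, and a minor transcript of PRPL4 at 77.5 FPKM in gun5-1 and 27.9 FPKM in Col-0. The second transcript of PSRP2 was at 95.7 FPKM in gun5-1 and 39.8 FPKM in Col-0.

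Whether the mutants differ from one another was tested gene by gene, as the difference of their log2 fold changes divided by its SE, with Benjamini-Hochberg adjustment over all genes tested in both tables. Col-0 cancels in this difference, since its values in the tables differ by a constant. The SE adds the Col-0 error of both tables, so the shared Col-0 libraries make it too large rather than too small. Whether the SE from the statistic is otherwise large enough could not be tested without values of single libraries. The deposited p-values stop at 5e-05, a limit that 38 of 38 members reached in at least 1 table of each pair, and there the SE was taken from the statistic alone. This departs from the planned SE, the larger of that from the statistic and that from the p-value for every gene, which takes the limit as the p itself. With the planned SE, 0 of 38 members passed at an adjusted p under 0.05 for gun4-1 minus gun5-1, beside 0.583% of all genes, 0 of 38 for gun1-1 minus gun5-1, beside 0.966%, and 0 of 38 for gun1-1 minus gun4-1, beside 3.58%. Without adjustment the planned SE gave 24, 6 and 2 of 38 members, beside 8.25%, 6.08% and 13.6% of all genes. The counts of members that differed between mutants therefore rest on the SE from the statistic, which the values below use.

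Between gun4-1 and gun5-1 the difference lay below 0 for 38 of 38 members, with a median of -0.68 and a range of -0.99 to -0.49, while it lay below 0 for 49.3% of all 18357 genes, with a median of 0.01. At an adjusted p under 0.05, 6 of 38 members differed, beside 2.78% of all genes. These were PSRP1 at -0.99 (95% interval -1.47 to -0.51), PRPL12A at -0.84 (-1.31 to -0.36), PRPL34 at -0.80 (-1.28 to -0.33), PRPL31 at -0.80 (-1.28 to -0.31), PRPL35 at -0.77 (-1.24 to -0.30) and PSRP4 at -0.76 (-1.23 to -0.30). At an unadjusted p under 0.05, 37 of 38 members differed, beside 9.06% of all genes. PRPS10, with the smallest difference, was the exception. Of the 6 members only PSRP1 also passed at an adjusted p under 0.01, and 1 of 38 members passed where the SE was taken from the deposited p-value alone.

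Between gun1-1 and gun5-1 the difference lay below 0 for 37 of 38 members, with a median of -0.41, and below 0 for 49.0% of all 18324 genes, with a median of 0.01. After adjustment 1 of 38 members differed, beside 1.71% of all genes: PSRP1, at -1.23 (95% interval -1.71 to -0.76). The adjusted count is near the share of all genes. Without adjustment 12 of 38 did, beside 7.20% of all genes. PRPL34 was the 1 member not below 0, at 0.01 (-0.46 to 0.48), and PRPS1 at -0.11 (-0.57 to 0.35) and PSRP4 at -0.07 (-0.53 to 0.39) were also close to 0.

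Between gun1-1 and gun4-1 the difference lay above 0 for 33 of 38 members, with a median of 0.27, and above 0 for 51.9% of all 18491 genes, with a median of 0.02. After adjustment 1 of 38 members differed, beside 6.18% of all genes, a share that does not set the members apart: PRPL34, at 0.81 (95% interval 0.34 to 1.28). Without adjustment 9 of 38 did, beside 14.2% of all genes. PSRP4 at 0.69 (0.22 to 1.15) and PRPS1 at 0.62 (0.16 to 1.09) did not pass the adjusted threshold. PSRP1 was at -0.24 (-0.72 to 0.24), against the direction of most members.

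**Figure D4:**
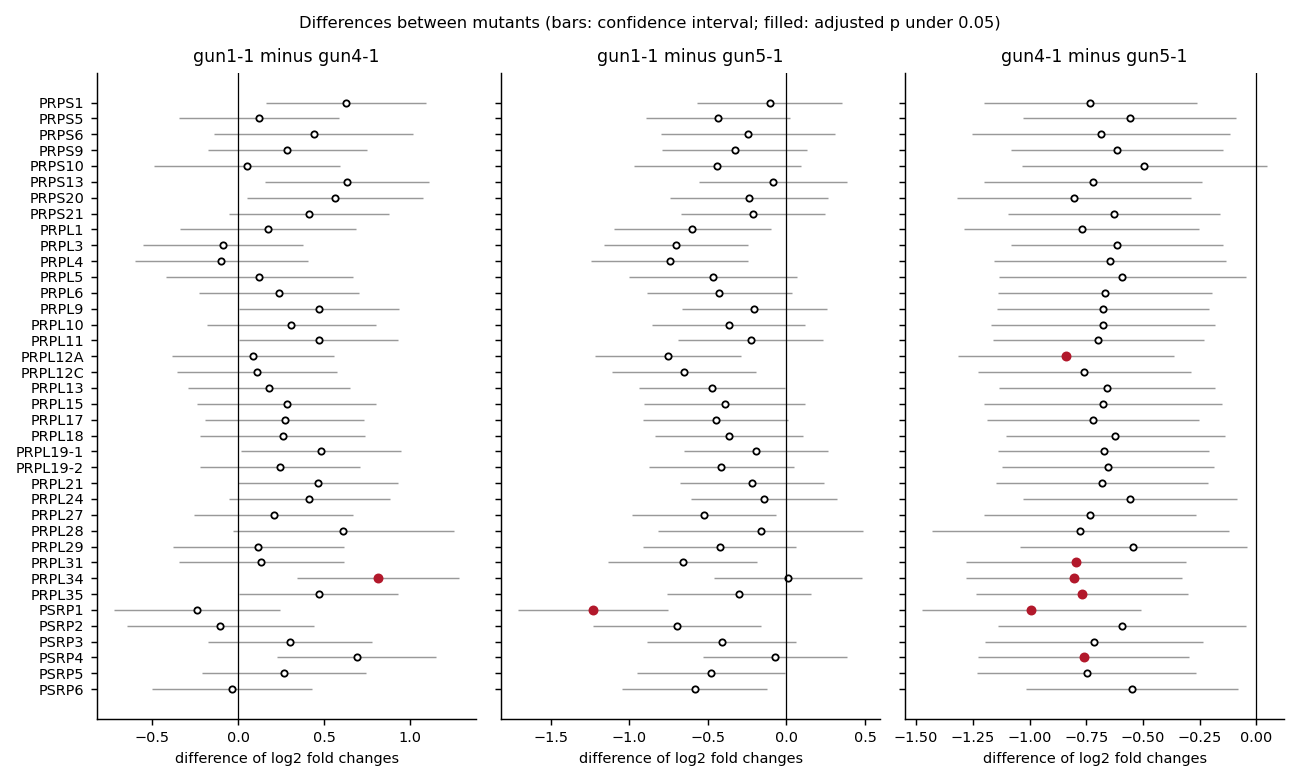
Difference of the log2 fold changes of 2 mutants for each of 38 members, with its 95% interval; filled points had an adjusted p under 0.05 on the SE from the statistic, and 0 points do on the planned SE. All points lie below 0 for gun4-1 minus gun5-1, 37 of 38 for gun1-1 minus gun5-1, and PSRP1 at -1.23 stands farthest from 0.

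The sequence before the starts of the members was searched for short motifs. In the 250 bases upstream of the annotated start, read on both strands, TGGGCC was present in 12 of 39 members (30.8%) and in 13.7% of 27443 promoters of protein-coding genes, and TGGGCT in 17.9% of members and 12.3% of promoters. These are the site II elements known from promoters of ribosomal protein genes, and at least 1 of them was present in 6 of 9 small subunit genes, 6 of 24 large subunit genes and 2 of 6 plastid-specific genes, together 35.9% beside 19.2% of promoters. GATAAG, the core of light-responsive I boxes, was present in 25.6% of members and 12.3% of promoters, and AAACCCTA, a telomere-like box, in 10.3% and 4.49%. The G box CACGTG was present in 7.69% of members and 6.49% of promoters and CCAATC in 10.3% and 10.2%. The 250 bases run into a neighbouring gene for many members: 18 of 39 had all 250 bases free of other genes, and 5 of 39 had none, beside 71.6% and 7.61% of promoters. With every window ended at the neighbouring gene, a setting chosen after the data had been seen, TGGGCC was present in 10 of 39 members and 3286 of 27443 promoters, and TGGGCT in 12.8% and 10.6%. At least 1 of these was then present in 4 of 9 small subunit, 5 of 24 large subunit and 2 of 6 plastid-specific genes, together 28.2% beside 16.7% of promoters. GATAAG was present in 12.8% of members and 9.89% of promoters in these windows, AAACCCTA in 5.13% and 3.31%, CACGTG in 7.69% and 5.61%, and CCAATC in 10.3% and 8.13%. A match is a stretch of letters and was not shown to be a site. A link between the matches and the fold changes of the members was not tested.

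The sequences of 3 upstream regions are given because of what their genes did: PSRP1 differed most between gun1-1 and gun5-1, PRPL35 differed between gun4-1 and gun5-1 on the SE from the statistic, and PRPL19-2 was not called in gun4-1 and holds several matches to TGGGCC. They are from RefSeq (TAIR10.1), run 5′ to 3′ on the strand of the gene and end at the base before its start, and capitals mark matches to the 6 motifs on either strand. PSRP1 (chr5:8365351-8365600, plus strand) holds GATAAG 2 times, both on the other strand. PRPL35 (chr2:10241625-10241874, plus strand) holds none of the 6. PRPL19-2 (chr4:9779974-9780223, plus strand) holds TGGGCC 5 times, of which 2 overlap, and the match nearest to the start begins 8 bases before it.
PSRP1: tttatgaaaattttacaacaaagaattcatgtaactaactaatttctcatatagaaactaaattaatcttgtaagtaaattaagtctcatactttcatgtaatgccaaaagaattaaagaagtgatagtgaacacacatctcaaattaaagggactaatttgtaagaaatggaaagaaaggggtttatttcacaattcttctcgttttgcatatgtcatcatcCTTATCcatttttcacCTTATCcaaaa
PRPL35: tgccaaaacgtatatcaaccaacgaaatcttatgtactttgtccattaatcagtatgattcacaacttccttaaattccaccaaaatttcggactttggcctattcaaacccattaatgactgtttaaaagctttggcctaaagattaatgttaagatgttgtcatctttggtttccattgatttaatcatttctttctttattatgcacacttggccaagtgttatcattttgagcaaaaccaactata
PRPL19-2: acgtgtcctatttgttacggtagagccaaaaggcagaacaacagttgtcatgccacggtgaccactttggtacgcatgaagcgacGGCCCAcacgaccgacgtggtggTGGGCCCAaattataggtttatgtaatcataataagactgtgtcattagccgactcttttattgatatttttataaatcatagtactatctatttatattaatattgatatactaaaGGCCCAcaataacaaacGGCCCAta

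Genes that serve the plastid ribosome were compared next, from lists chosen for their role. Plastid translation factors were called higher in 14 of 14 genes in gun1-1, 8 of 14 in gun4-1 and 13 of 14 in gun5-1 and lower in none, with median log2 fold changes of 0.91, 0.35 and 1.07. Of all tested genes, 18.8% were called higher in gun1-1, 8.21% in gun4-1 and 16.4% in gun5-1. The elongation factor EF-Ts led this list in each mutant, at 282 FPKM in gun1-1 and 74.5 FPKM in Col-0, at 179.9 FPKM in gun4-1 and 80.0 FPKM in Col-0, and at 276 FPKM in gun5-1 and 73.3 FPKM in Col-0. The initiation factor IF2 followed, at 178 FPKM in gun1-1 and 57.9 FPKM in Col-0, at 98.3 FPKM in gun4-1 and 62.2 FPKM in Col-0, and at 179.7 FPKM in gun5-1 and 57.0 FPKM in Col-0.

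Genes for assembly of the plastid ribosome and maturation of its RNA were called in both directions. In gun1-1, 6 of 14 were higher and 2 lower, in gun4-1 4 were higher and 1 lower, and in gun5-1 9 were higher and 1 lower, with median log2 fold changes of 0.26, 0.23 and 0.61. Of all tested genes, 18.8% were higher and 14.9% lower in gun1-1, 8.21% and 5.88% in gun4-1, and 16.4% and 13.1% in gun5-1. The lower calls were thus near or below the share of all genes and do not set this list apart. NOA1, a GTPase needed for plastid ribosomes, was at 31.9 FPKM in gun1-1 and 14.5 FPKM in Col-0 and at 35.7 FPKM in gun5-1 and 14.2 FPKM in Col-0. The RNA helicase RH22 was lower in all 3, at 20.8 FPKM in gun1-1 and 31.5 FPKM in Col-0, at 24.6 FPKM in gun4-1 and 33.8 FPKM in Col-0, and at 21.1 FPKM in gun5-1 and 31.0 FPKM in Col-0. RAP, which acts on the precursor of the small ribosomal RNA, was lower in gun1-1, at 16.5 FPKM and 24.1 FPKM in Col-0.

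The plastid genome's own ribosomal protein genes went with the nuclear ones in gun4-1 and gun5-1 and against them in gun1-1. In gun1-1, 0 of 16 tested genes were higher and 8 lower, with a median log2 fold change of -1.55. In gun4-1, 10 of 17 were higher and 0 lower, with a median of 0.80, and in gun5-1, 14 of 18 were higher and 0 lower, with a median of 1.29. Of all tested genes, 14.9% were lower in gun1-1, and 8.21% and 16.4% were higher in gun4-1 and gun5-1. In gun1-1, rps3 was among the genes called lower, at 363 FPKM in gun1-1 and 1358 FPKM in Col-0. In gun4-1, rps2 was at 20.6 FPKM and 3.84 FPKM in Col-0 and rpl20 at 41.1 FPKM and 8.38 FPKM in Col-0. Both were at low levels, and 7 of 17 genes were not called there, among them rps3 at 1722 FPKM and 1458 FPKM in Col-0. In gun5-1, rps4 was at 33.1 FPKM and 8.39 FPKM in Col-0 and rps14 at 156 FPKM and 40.0 FPKM in Col-0. The libraries were made from oligo(dT)-selected RNA, and most plastid messages lack a long poly(A) tail, so these levels concern the fraction that was captured; the part of that selection in the result was not tested. Many plastid genes also share transcripts with their neighbours, and the 26 listed loci are therefore not 26 separate measurements.

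**Figure D5:**
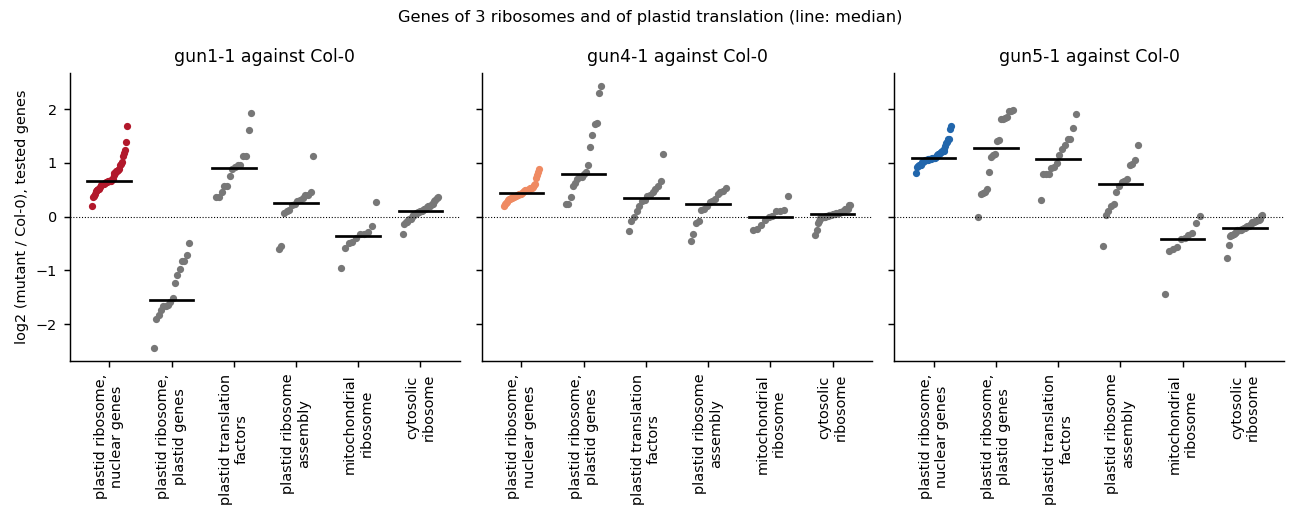
Log2 ratio of each mutant to Col-0 for the tested genes of 6 lists, each point a gene and each line the list's median; coloured points are the nuclear genes of the plastid ribosome. In gun1-1 the plastid genome's ribosomal protein genes have a median of -1.55 beside 0.66 for the nuclear genes, and the mitochondrial and cytosolic lists lie near 0 or below in gun5-1.

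Genes for the other ribosomes of the cell were not called higher more often than all tested genes in any mutant. Of 29 genes for cytosolic ribosomal proteins, 5 were higher and 0 lower in gun1-1, 0 were called either way in gun4-1, and 0 were higher and 8 lower in gun5-1. Of all tested genes, 18.8% were higher in gun1-1, so the 5 of 29 there are near that share, and 13.1% were lower in gun5-1. In gun4-1, 2 of 29 had an unadjusted Cuffdiff p under 0.05. The median log2 fold changes were 0.10 in gun1-1, 0.05 in gun4-1 and -0.20 in gun5-1. In gun1-1 the highest were RPL23AA at 593 FPKM and 462 FPKM in Col-0 and RPL7B at 490.2 FPKM and 387 FPKM in Col-0, and in gun5-1 the lowest were RPL23AB at 77.7 FPKM and 133 FPKM in Col-0 and RPL3B at 7.38 FPKM and 10.7 FPKM in Col-0.

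Of 10 nuclear genes for mitochondrial ribosomal proteins, 6 were lower in gun1-1, 0 were called in gun4-1 and 6 were lower in gun5-1, with medians of -0.36, 0.00 and -0.41. Of all tested genes, 14.9% were lower in gun1-1 and 13.1% in gun5-1. None was called higher, and in gun4-1 2 of 10 had an unadjusted Cuffdiff p under 0.05. HLL, which encodes an L14 protein, was the lowest, at 4.68 FPKM in gun1-1 and 9.05 FPKM in Col-0 and at 3.29 FPKM in gun5-1 and 8.91 FPKM in Col-0. RPL21M followed at 25.3 FPKM in gun1-1 and 37.9 FPKM in Col-0 and at 23.9 FPKM in gun5-1 and 37.3 FPKM in Col-0. One gene of this list, AT3G17465, carries a plastid name in the reference annotation, so its place here is uncertain.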

How the data were processed

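Per the labels' protocols, RNA was selected with oligo(dT) and converted with random hexamers. Trimmomatic, TopHat, Cufflinks and Cuffdiff are named in the submitters' processing notes, without a version, build or annotation. The 3 tables, 1 per mutant and deposited with the series, hold FPKM per genotype that the authors made with Cuffdiff over 3 libraries each, so depth per sample is unknown. They also give the authors' log2 fold change (mutant over Col-0), test score, p-value and q-value, adjusted over tested transcripts. Levels of PRPS17 and other genes at 0 are as listed.

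A gene's values are those of its most abundant transcript by mean FPKM, called by the deposited status OK and q under 0.05. The SE is the fold change over its statistic, or over the normal quantile of its p where that is larger and p is above 5e-05, the smallest listed value. The plan had no such exception, which was made after the tables had been seen; the counts without it are given beside those with it. The difference between mutants was tested on this SE with a two-sided normal p, a test tried on simulated data. The simulated errors were drawn from the same SE, so the trial cannot show whether that SE fits these data. Relative to the gun1-1 table, Col-0 was scaled by 1.07 in the gun4-1 table and by 0.984 in that of gun5-1. For 25705 of 25713 loci with 1 gene, coordinates equal those of TAIR10.1 (RefSeq), from which neighbours and sequences were taken. Python 3.11.15, pandas 2.3.3, scipy 1.17.1, statsmodels 0.14.6 and matplotlib 3.10.9 were used.

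The members and all gene lists were chosen with earlier results of these data known. Genes with full values were those with the 3 highest or 3 lowest fold changes per comparison or Col-0 levels, the plastid-specific proteins, PRPS1, the paralog pairs, and those not called or differing between mutants; other lists name at most the 2 highest and 2 lowest called genes per comparison. The 6 motifs and the leaf and root genes were chosen after the tables had been seen, as were 4 alternatives: the planned SE, upstream windows ended at neighbouring genes, leaving out members with overlapping genes and reading PRPS17 from AT1G09927. An upstream sequence and a plastid gene within the naming rule are not reported here.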

Additional observations from a re-analysis of the deposited data

Results flagged for a closer look

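For 6 members the log2 fold changes of 2 mutants differed by the test of the difference itself, in 8 comparisons, on the SE from the statistic; on the planned SE 0 did. PSRP1 differed by -1.23 for gun1-1 minus gun5-1 and by -0.99 for gun4-1 minus gun5-1. PRPL34 differed by 0.81 for gun1-1 minus gun4-1 and by -0.80 for gun4-1 minus gun5-1. The 2 results of PSRP1 share its gun5-1 value and the 2 of PRPL34 its gun4-1 value, so the 8 are not separate observations. For gun4-1 minus gun5-1, PRPL12A differed by -0.84, PRPL31 by -0.80, PRPL35 by -0.77 and PSRP4 by -0.76. PSRP1 shares 159 bases with AT5G24500 on the opposite strand, which was at 20.7 FPKM in gun1-1 and 15.5 FPKM in Col-0 and at 13.1 FPKM in gun5-1 and 15.2 FPKM in Col-0, not called in either; its part in the result was not tested.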

How the results depend on the processing

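Counts of members called against Col-0, and their medians, kept their direction under the alternatives tried. The counts stayed within 1.5 times the reported count, and the medians moved by less than the median SE of a single gene. The alternatives were another choice of transcript, a pseudocount of 1 FPKM, centring on the median of all genes and a minimum of 5 FPKM. A q threshold of 0.01 and reading PRPS17 from AT1G09927 were also tried. Leaving out members with an overlapping gene moved the medians by less than the median SE of a single gene. With 23 tested members left, the counts fell to 23 in gun1-1, 21 in gun4-1 and 23 in gun5-1. In gun4-1 the count of 34 became 30 at a q of 0.01 and 36 with the minimum of 5 FPKM. PRPS6, PRPL1, PRPL13 and PSRP5 no longer passed at the stricter threshold, and PRPL19-2 and PRPL24 passed with the minimum. That setting also adjusted again over 1 transcript per gene in place of all tested transcripts, so the parts of the 2 changes were not told apart. Summing FPKM over transcripts gives no test and hence no count. Differences between mutants depended more on the setting. For gun1-1 minus gun4-1 the count of 1 became 0 at an adjusted p of 0.01 and 2 with centring or with the minimum of 5 FPKM. For gun4-1 minus gun5-1 the count of 6 became 1 at an adjusted p of 0.01, and 1 with the SE taken from the deposited p only, which reads the smallest listed p, a limit, as the p itself and so widens the SE of strongly changed genes. With the planned SE, the larger of both also at that limit, the counts of 1, 1 and 6 for gun1-1 minus gun4-1, gun1-1 minus gun5-1 and gun4-1 minus gun5-1 each became 0. No paired analysis was possible because the tables hold only group values, and for the same reason no replicate could be left out.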
